A study of Mus musculus with 18 samples.

Results

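Macrophages and other myeloid cells were followed in sorted cardiac fibroblast libraries through 42 genes chosen by symbol. They are genes of resident macrophages, monocytes, neutrophils and MHC class II presentation, and all 42 were found among the 55453 gene symbols of the counts table. Of these, 38 passed edgeR's filter on low counts and could be tested among 16170 genes. The other 4, Ccr2, Chil3, Ly6c2 and Timd4, did not pass the filter and are described by their counts. Members are matched by symbol, from a list drawn up with earlier results of these data known.

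Resident cardiac macrophages seed the heart before birth, keep themselves by local division and clear dying cells, and they carry surface receptors such as CSF1R, MERTK, CD163 and LYVE1. After injury, monocytes that carry CCR2 and neutrophils that release S100A8 and S100A9 enter from the blood. Macrophages are known to be required for the neonatal mouse heart to regenerate. Tcf21 marks the fibroblast and epicardial lineage and is not a macrophage gene.

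The sorted cells came from Tcf21 MerCreMer/+; Rosa mTmG/+ pups, labelled as strain C57BL/6J and all given tamoxifen at P1. In these pups the Cre recombinase is driven from the Tcf21 gene, so that after tamoxifen cells of the Tcf21 lineage carry GFP at the membrane while every other cell keeps tdTomato. The GFP+ fraction of the apical part of the ventricles was sorted, and each of 6 groups held 3 libraries. P2 baseline and P10 baseline came from un-manipulated pups of those ages. Pups given sham surgery at P2 gave the group P2 sham +3 days, and pups whose ventricular apex was removed at P2 gave P2 resected +3 days. Surgery at P10 gave P10 sham +3 days and, with removal of the apex, P10 resected +3 days. Collection was 3 days after surgery in each case. These 4 groups are written P2 sham, P2 resected, P10 sham and P10 resected, and the 3 groups of an age form its window. The study regards surgery at P2 as regenerative and surgery at P10 as non-regenerative. Sex and the number of pups per library are not given in the labels, which also do not say that replicates were separate animals, so p-values measure only the spread between these samples.

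Libraries held from 10462737 to 22980554 counted reads. Levels are given as CPM, counts over TMM-scaled library sizes, and levels of different members are ranked as RPKM, which also divides by the exon length of the gene. Genes of the fibroblast lineage dominated every library. Tcf21 lay between 203 and 447 CPM, Pdgfra between 256 and 878 CPM, and 10 fibroblast genes together summed to 57900 to 122000 CPM. Markers of other cells varied from nearly absent to clearly present. Cd3e, which marks T cells, had no counts in 17 libraries and 1 count in a P10 baseline library. Cpa3, which marks mast cells, summed to 324 counts at P2 resected, nearly all in replicate 3, and to 66 counts at P10 baseline. Tnnt2 of cardiomyocytes lay between 31.9 and 271 CPM. The 12 listed cardiomyocyte genes summed to 175 to 1560 CPM and the 9 listed endothelial genes to 225 to 836 CPM.

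The 42 members together were a small share of every library, from 0.00398% to 0.154% of its counts, and it differed widely between replicates of a group. Their summed level was 159, 162 and 47.6 CPM at P2 baseline, 37.1, 202 and 347 CPM at P2 sham, and 697, 353 and 137 CPM at P2 resected. The P10 sums were 48.3, 173 and 361 CPM at baseline, 183, 593 and 486 CPM after sham surgery, and 793, 1640 and 241 CPM after resection. The resected groups held the highest library at each age, and in both ages their lowest library lay inside the range of the sham group. In such bulk libraries, fewer macrophages in the sorted fraction and less RNA per macrophage cannot be told apart, and nor can RNA made by GFP+ cells from RNA of other cells that passed the gate.

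**Figure D1:**
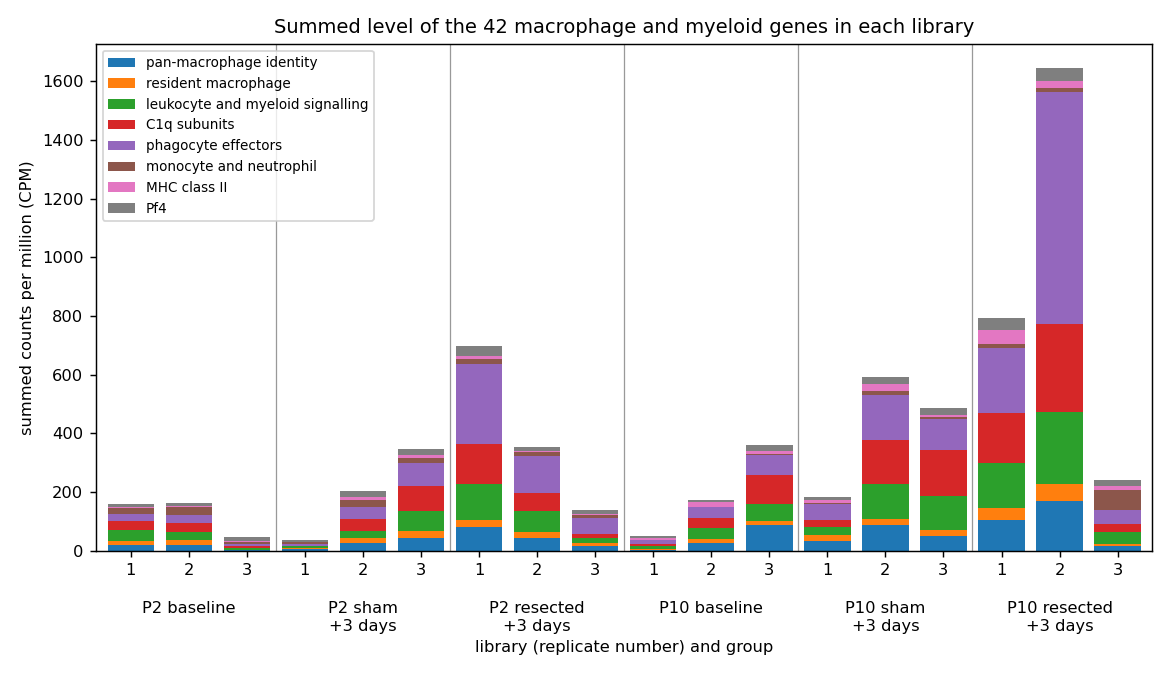
Summed level of the 42 members in each library, in CPM, stacked by role, with the 3 replicates of each group side by side. P10 resected replicate 2 stands highest at 1640 CPM and P2 sham replicate 1 lowest at 37.1 CPM, and libraries of 1 group differ widely.

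Several libraries stood apart from their group across most members. P2 sham replicate 1 had no counts for 31 of the 42 members, P2 baseline replicate 3 for 27, P10 baseline replicate 1 for 20 and P2 resected replicate 3 for 15. In the other 14 libraries between 1 and 11 members had no counts. P10 resected replicate 2 held the highest level of 21 members and P10 resected replicate 1 of 10 members. Genes of other cell types did not follow 1 order. P10 resected replicate 1 was highest for the summed endothelial genes at 836 CPM and erythroid genes at 480 CPM, while P10 resected replicate 2 stood at 359 and 295 CPM for the same lists. Their part in the member levels was not tested.

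**Figure D2:**
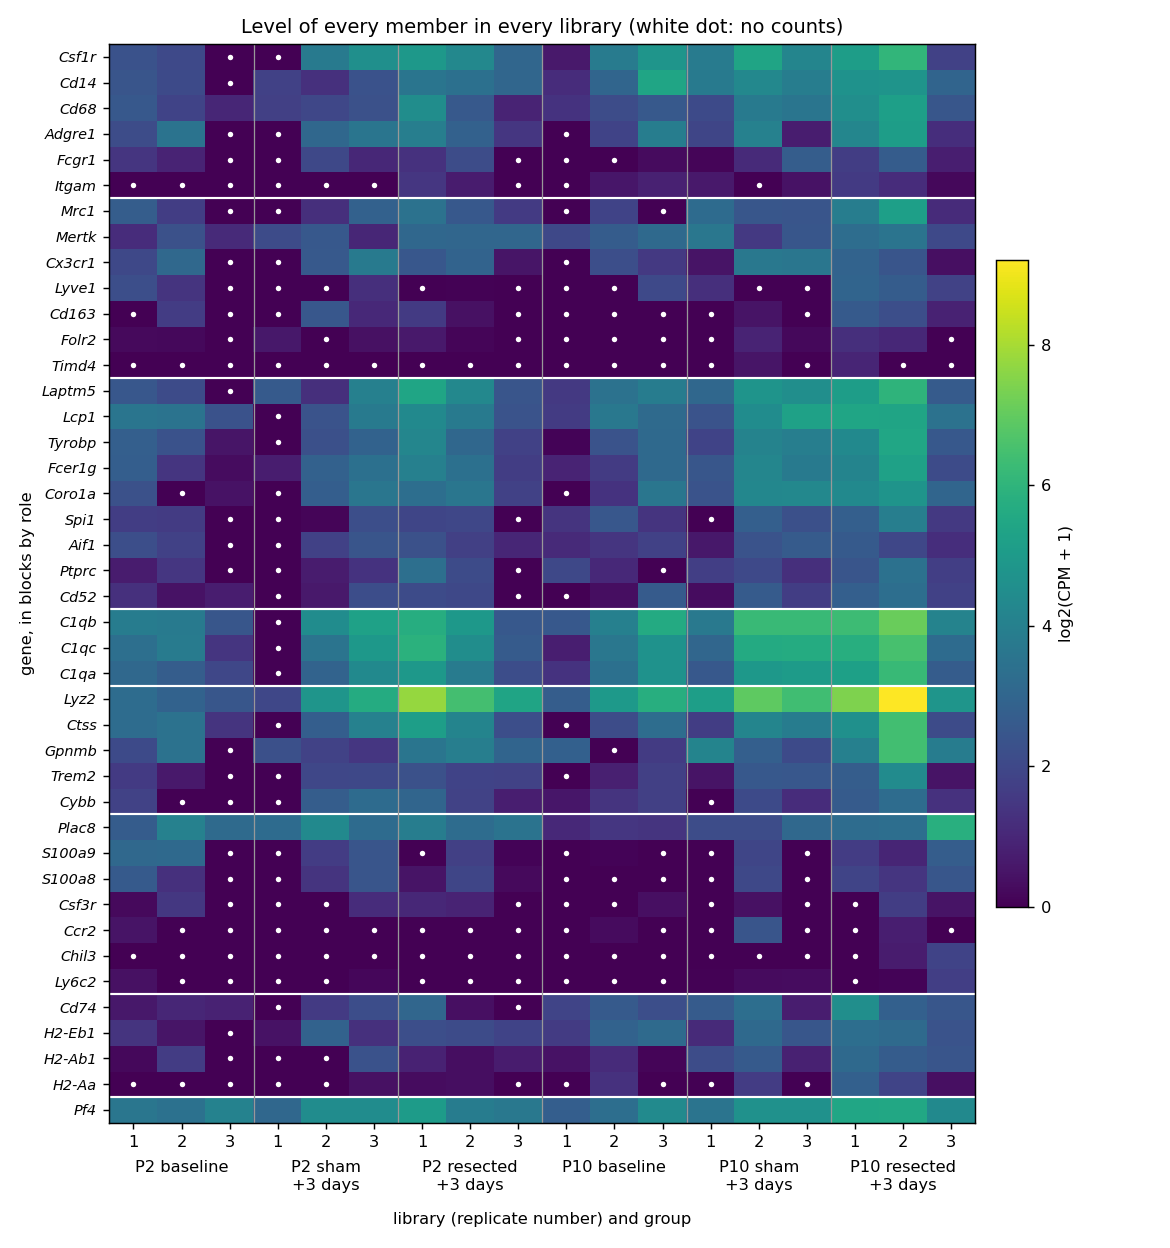
Level of each of the 42 members (rows, in blocks by role) in each of 18 libraries (columns), as log2(CPM + 1), with a white dot where a library had no counts. P2 sham replicate 1 and P2 baseline replicate 3 lack counts for most members, and Pf4 and Lyz2 are among the rows with counts in every library.

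Resection was compared with sham surgery at each age to find which myeloid genes follow removal of the apex. In edgeR's quasi-likelihood test, with p-values adjusted by Benjamini-Hochberg over all genes, 0 of 38 members passed an adjusted p under 0.05 at P2, beside 0% of all genes tested, and 0 of 38 passed at P10, beside 0% of all genes. At an unadjusted p under 0.05 the number was 2 at P2 (Itgam and Lyz2), where 4.51% of all genes reached it, and 1 at P10 (Plac8), where 4.09% did. DESeq2 called 0 of 40 members with an adjusted p at P2 and 0 of 41 at P10, beside 0.2% and 0.206% of all genes. Most members had a positive log2 fold change, 29 of 38 at P2 with a median of 0.62 and 36 of 38 at P10 with a median of 1.17, while 49.9% and 52% of all genes did. Over both ages together 35 of 38 were positive (52.9% of all genes), 0 were called, and 5 had an unadjusted p under 0.05 (5.78% of all genes). These counts describe members that vary together from library to library, and the medians moved with single libraries. The P2 median was 0.04 without P2 sham replicate 1 and 1.48 without P2 sham replicate 3, and the P10 median was 0.47 without P10 resected replicate 2 and 1.58 without P10 sham replicate 2. With voom sample weights 18 of 38 were positive at P2 with a median of -0.01, and 36 of 38 at P10 with a median of 0.98. Genes of endothelial cells were positive after resection for 7 of 9 at each age, with medians of 0.74 and 1.63, and erythroid genes for 0 of 7 at P2 and 6 of 7 at P10, with medians of -1.19 and 1.36, and their part in the members' values was not tested.

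Few members separated the groups library by library. At P2, every resected library lay above every sham library for 3 members, Cd14, Mertk and Gpnmb, and none lay below, where 5.62% and 2.85% of all genes did so. At P10, 3 members, Plac8, Cd163 and Lyve1, lay above and none below, where 5.63% and 3.04% of all genes did. No member was in both groups of 3. A test of whether resection acted differently at P10 than at P2 called 0 of 38 members by edgeR, beside 0% of all genes, and 0 of 41 by DESeq2, beside 0.115%, and 2 members, Lyve1 and Plac8, had an unadjusted p under 0.05 in edgeR (2.88% of all genes).

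**Figure D3:**
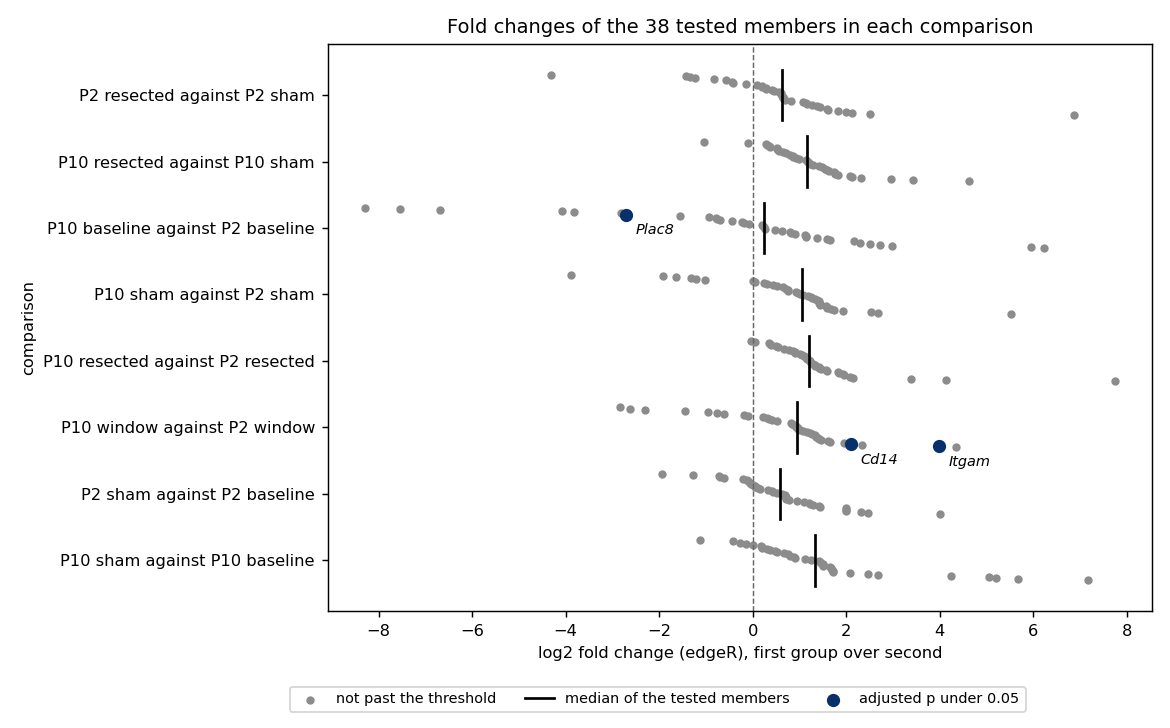
Fitted log2 fold changes (edgeR) of the 38 tested members in 8 comparisons, 1 point per gene, with genes past an adjusted p of 0.05 in dark blue and the median as a bar. Plac8, Cd14 and Itgam are the dark points, and fitted values of genes without counts in 1 group depend on the prior count.

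**Figure D4:**
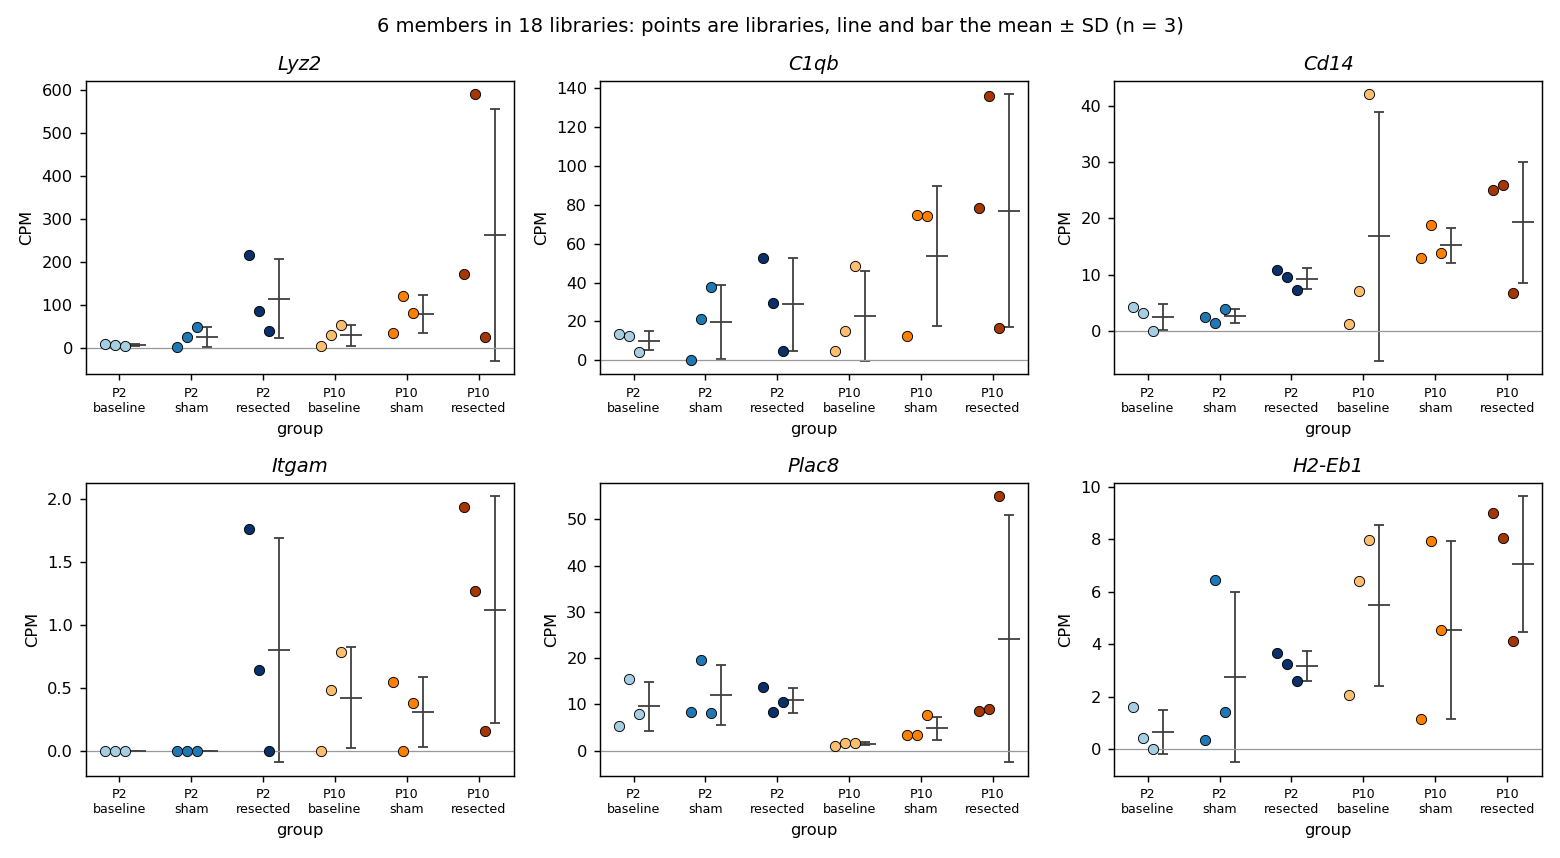
CPM of Lyz2, C1qb, Cd14, Itgam, Plac8 and H2-Eb1 in each library (points) with the mean and SD of each group of 3 (line and bar), in a panel per gene with its own axis. Lyz2 reaches 590 CPM in P10 resected replicate 2, and Plac8 is lowest at P10 baseline.

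Age was compared at baseline, after sham surgery, after resection and over the whole window of 9 libraries against 9. The study digested hearts of the P10 window for longer than those of the P2 window. The time from tamoxifen to collection was also longer at P10. Neither can be told apart from age in these comparisons. Between the baselines 1 of 38 members, Plac8, was called and was lower at P10, beside 4.38% of all genes called, 1.68% lower and 2.71% higher. Over the windows 2 members, Cd14 and Itgam, were called and were higher at P10, beside 13.5% of all genes, 7.11% higher and 6.39% lower. After sham surgery 0 of 38 members were called, beside 3.18% of all genes, and after resection 0 of 38, beside 0.86%. At an unadjusted p under 0.05 the numbers were 9 of 38 at baseline, 2 after sham surgery, 1 after resection and 7 over the windows, where 18.7%, 16.3%, 8.77% and 28.3% of all genes passed. DESeq2 called 4 of 38 members at baseline and 5 of 38 over the windows, beside 10.5% and 19.4% of all genes with an adjusted p in it. Without the filter on low counts, edgeR called 7 of 42 members between the baselines, 4 after sham surgery, 3 after resection and 16 over the windows, beside 4%, 3.15%, 1.82% and 9.54% of 28906 genes.

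The members' fold changes leaned towards P10 except at baseline. A positive log2 fold change was found for 22 of 38 members at baseline (48% of all genes), 32 after sham surgery (45%), 37 after resection (47.3%) and 29 over the windows (45.8%), with medians of 0.25, 1.04, 1.21 and 0.95. The baseline median was -0.46 without P10 baseline replicate 3, -0.12 without P2 baseline replicate 3 and 0.77 without P2 baseline replicate 1. The window median lay between 0.66 and 1.33 when any 1 library was left out. The sham median ranged from 0.63, without P2 sham replicate 1 or with P10 sham replicate 2 left out, to 2.09 when P2 sham replicate 3 was left out. The resected median was 0.47 without P10 resected replicate 2 and 1.85 without P2 resected replicate 1. Sham surgery was also set against baseline of the same age, a pair that also differs by 3 days of growth. By edgeR 0 of 38 members were called at P2 (0% of all genes) and 0 of 38 at P10 (0.00618% of all genes), while 0 and 4 members had an unadjusted p under 0.05 (7.6% and 7.4% of all genes). The median log2 fold change was 0.57 at P2, which became -0.2 without P2 sham replicate 3, and 1.33 at P10, which became 0.65 without P10 sham replicate 2 and 2.05 without P10 baseline replicate 3.

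Among 6 pan-macrophage identity genes, Cd14 and Itgam were called over the windows by edgeR with the filter on low counts. The other 4 (Cd68, Adgre1, Csf1r and Fcgr1) were called in no comparison by that fit. Cd14 encodes the co-receptor that presents bacterial lipopolysaccharide to TLR4. Cd14 was at 4.33, 3.16 and 0 CPM at P2 baseline, at 2.46, 1.43 and 3.98 CPM after P2 sham surgery and at 10.9, 9.66 and 7.21 CPM after P2 resection. At P10 it was at 1.27, 7.06 and 42 CPM at baseline, 12.9, 18.8 and 13.9 CPM after sham surgery and 25.1, 25.9 and 6.76 CPM after resection. Every P2 resected library lay above every P2 sham library, and every P10 sham library above every P2 sham library (as 9.07% of all genes did, with 7.61% wholly below), while P10 baseline ran from 1.27 to 42 CPM and overlapped P2 baseline. Over the windows Cd14 was higher at P10 (log2 fold change 2.11, SE 0.62, edgeR adjusted p = 0.0304). The call held in 10 of 18 fits that left out 1 library, with adjusted p-values from 0.00737 to 0.108, and without P10 baseline replicate 3 the log2 fold change was 1.44. The resection effect at P2 was 1.82 (SE 1.07, log2 scale, edgeR adjusted p = 1) and at P10 it was 0.34 (SE 1.02, edgeR adjusted p = 1).

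Itgam encodes CD11b, the integrin chain of macrophages, monocytes and neutrophils, and most P2 libraries had no counts for it. In the P2 window the level of Itgam was 0, 0 and 0 CPM in the baseline libraries, 0, 0 and 0 CPM in the sham libraries and 1.76, 0.641 and 0 CPM in the resected libraries. The P10 values were 0, 0.482 and 0.789 CPM at baseline, 0.549, 0 and 0.377 CPM after sham surgery and 1.94, 1.27 and 0.155 CPM after resection. All 6 P2 baseline and sham libraries had no counts, whereas 7 of 9 P10 libraries had some, at most 39 reads in a library. Over the windows Itgam was higher at P10 (log2 fold change 3.99, SE 1.24, edgeR adjusted p = 0.0488), and the call held in 2 of 18 fits that left out 1 library. Its fitted fold change depends on the prior count, and the ratio of the mean levels was 2.32. In the annotation 68.7% of the exon bases of Itgam are shared with Gm49368 on the same strand, and reads that fall on both are dropped by the counting, so its level is understated and uncertain.

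Csf1r, the receptor for the macrophage growth factor CSF1, drew the most reads of these 6 genes. The P2 libraries held Csf1r at 4.01, 3.07 and 0 CPM without surgery, 0, 12.8 and 23.2 CPM after sham surgery and 28.8, 18.5 and 7.32 CPM after resection. In the P10 window the values were 0.546, 13.4 and 27 CPM, 13.2, 40.2 and 17.1 CPM and 33.6, 66 and 2.41 CPM in the same order of groups. The groups overlapped in every comparison, and the resection effect was 0.61 (SE 1.4) at P2 and 0.53 (SE 1.39) at P10 on the log2 scale, with edgeR adjusted p-values of 1. Cd68, a lysosomal membrane protein, had counts in all 18 libraries, from 0.881 to 35.5 CPM, and Adgre1, which encodes the F4/80 antigen, reached 33.7 CPM in P10 resected replicate 2. Fcgr1, an Fc receptor, reached 5.52 CPM in P10 sham replicate 3. The 6 genes had a positive log2 fold change after resection at both ages, with medians of 1.11 and 0.88. Without the filter on low counts, edgeR called Csf1r between the baselines, over the windows and between P2 sham and P2 baseline.

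The 7 resident macrophage genes were among the sparser members, and none of the 6 tested was called by edgeR in any comparison, although Lyve1 was called as higher at P10 resected than at P2 resected with voom weights, with those groups fitted alone and without the filter on low counts. Mrc1, the mannose receptor, drew the most reads. Mrc1 was at 5.62, 2.19 and 0 CPM at P2 baseline, at 0, 1.34 and 6.27 CPM after P2 sham surgery and at 9.97, 4.74 and 1.98 CPM after P2 resection. At P10 it was at 0, 2.57 and 0 CPM at baseline, 8.29, 4.53 and 4.43 CPM after sham surgery and 14, 35.4 and 1.17 CPM after resection. Its groups overlapped in the other comparisons, but P10 sham lay above P10 baseline in every library (log2 fold change 2.69, SE 1.72, edgeR adjusted p = 0.809). Between these groups 2 of 38 members lay wholly above and 0 wholly below, where 5.34% and 4.69% of all genes did. The fold of Mrc1 after P10 resection, 2.93, came from replicates 1 and 2, and replicate 3 lay below all P10 sham libraries.

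Mertk, a receptor through which macrophages engulf apoptotic cells, had counts in all 18 libraries. In the P2 window the level of Mertk was 1.24, 3.86 and 1.16 CPM in the baseline libraries, 3.25, 4.8 and 0.979 CPM in the sham libraries and 7.39, 7.13 and 7.27 CPM in the resected libraries. The P10 values were 3.03, 5.4 and 7.79 CPM at baseline, 11.7, 1.88 and 4.57 CPM after sham surgery and 8.85, 10.6 and 3.11 CPM after resection. The P2 resected libraries averaged 7.26 ± 0.127 CPM (SD, n = 3) and lay above all P2 sham libraries, with a log2 fold change of 1.27 (SE 0.75, edgeR adjusted p = 1). P2 sham replicate 1, which had no C1q counts, held Mertk at 3.25 CPM.

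Lyve1 and Cd163 mark resident macrophages near vessels, and Lyve1 is also a lymphatic endothelial gene. Lyve1 was at 6.86, 5.4 and 2.49 CPM at P10 resected, against 1.35, 0 and 0 CPM at P10 sham and 0, 0.0427 and 0 CPM at P2 resected. Cd163 was at 5.12, 3.69 and 0.855 CPM at P10 resected, against 0, 0.388 and 0 CPM at P10 sham. Both separated P10 resected from P10 sham, with edgeR adjusted p-values of 1. Lyve1 also separated P10 resected from P2 resected (edgeR adjusted p = 0.366), where the P2 group held 1 count. Folr2, a folate receptor, had 95 counts in all and Cx3cr1, the fractalkine receptor, 1489. Timd4, which binds phosphatidylserine, had 26 counts in 2 libraries, P10 resected replicate 1 and P10 sham replicate 2. Of the exon bases of Folr2, 63.1% are shared with Gm10602 on the other strand, and strand was not used in the counting. At P2 the median log2 fold change of the 6 genes after resection was -0.51 with 2 positive, and at P10 it was 1.38 with 5 positive.

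Of 9 genes of leukocyte and myeloid signalling, none was called by edgeR in any comparison, and all 9 had a positive log2 fold change after resection at P2 and 8 at P10, with medians of 0.7 and 0.87. Laptm5, a lysosomal protein of haematopoietic cells, drew the most reads. The P2 libraries held Laptm5 at 4.65, 3.3 and 0 CPM without surgery, 5.02, 1.38 and 15.2 CPM after sham surgery and 41.2, 18.8 and 4.35 CPM after resection. In the P10 window the values were 1.88, 10.1 and 13.5 CPM, 7.49, 25.9 and 22.3 CPM and 34.1, 62.5 and 5.21 CPM in the same order of groups. Lcp1 encodes L-plastin, an actin bundling protein of leukocytes. Lcp1 was at 10.9, 10.3 and 4.02 CPM at P2 baseline, at 0, 4.06 and 12.5 CPM after P2 sham surgery and at 19.8, 12.7 and 4.13 CPM after P2 resection. At P10 it was at 2.06, 12 and 7.99 CPM at baseline, 4.1, 21.1 and 37.3 CPM after sham surgery and 41.7, 40.5 and 10.1 CPM after resection. For both genes each resected group overlapped its sham group. Without the filter on low counts, edgeR called Coro1a, Laptm5, Lcp1 and Tyrobp over the windows, Laptm5 between the baselines and Lcp1 between the sham groups.

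Tyrobp and Fcer1g encode the adaptors that carry the signal of many myeloid receptors, and per length they were the highest of this role, at a mean of 13.3 and 9.75 RPKM over 18 libraries. Tyrobp reached 42.2 CPM and Fcer1g 37.2 CPM, both in P10 resected replicate 2. Spi1, which encodes the myeloid transcription factor PU.1, was at a mean of 1.1 RPKM and had no counts in 4 libraries. Ptprc, which encodes the leukocyte antigen CD45, was at 0.134 RPKM and also lacked counts in 4 libraries. Coro1a, Aif1 and Cd52 had no counts in 3, 2 and 3 libraries.

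The 3 C1q subunits form the recognition protein of the classical complement pathway, which macrophages make, and they varied together from library to library. C1qb was at 13.7, 12.4 and 4.51 CPM at P2 baseline, at 0, 21.1 and 37.8 CPM after P2 sham surgery and at 52.6, 29.3 and 4.73 CPM after P2 resection. P10 libraries held C1qb at 4.85, 15 and 48.7 CPM at baseline, 12.3, 74.7 and 74 CPM after sham surgery and 78.4, 136 and 16.4 CPM after resection. C1qc followed nearly the same order of libraries. In the P2 window the level of C1qc was 9.35, 13.1 and 1.65 CPM in the baseline libraries, 0, 10.6 and 29.4 CPM in the sham libraries and 57.3, 21.6 and 5.29 CPM in the resected libraries. The P10 values were 0.728, 11.7 and 24.9 CPM at baseline, 7.29, 48.4 and 50 CPM after sham surgery and 54.3, 91.6 and 8.24 CPM after resection. All 3 subunits had no counts in P2 sham replicate 1 and their highest level in P10 resected replicate 2. C1qb made up 41.7% to 70.8% of the summed RPKM of the subunits. The resection effect on C1qb was 0.56 (SE 1.21) at P2 and 0.52 (SE 1.2) at P10 on the log2 scale, with edgeR adjusted p-values of 1, and every comparison overlapped. Over the windows the log2 fold change of C1qb was 1.34 (SE 0.71, edgeR adjusted p = 0.231), and without the filter on low counts edgeR called all 3 subunits.

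Among 5 phagocyte effectors, Lyz2 was the highest member of the whole list per length, at a mean of 65.8 RPKM. Lyz2 encodes lysozyme M, the antibacterial enzyme of macrophages and neutrophils. The P2 libraries held Lyz2 at 8.65, 6.47 and 4.57 CPM without surgery, 2.93, 26.7 and 49.2 CPM after sham surgery and 217, 86.6 and 40.3 CPM after resection. In the P10 window the values were 5.52, 30.3 and 53.5 CPM, 34.5, 121 and 82.3 CPM and 173, 590 and 26.6 CPM in the same order of groups. The 3 P2 resected values spanned from inside the sham range to above it, since replicate 3 lay below P2 sham replicate 3. The log2 fold change after resection was 2.13 (SE 1, edgeR adjusted p = 1) at P2, 1.73 (SE 0.99, edgeR adjusted p = 1) at P10 and 1.93 (SE 0.7, edgeR adjusted p = 0.721) over both ages. Without the filter on low counts edgeR called Lyz2 in all 3, with adjusted p-values of 2.24e-05, 0.00162 and 3.35e-10, while the adjusted p was at least 0.338 in the other alternatives over both ages. That fit also called Lyz2 between the baselines, between the sham groups, between the resected groups, and for sham against baseline at each age. With 1 library left out the P2 value lay between 1.28 (P2 resected replicate 1) and 2.95 (P2 sham replicate 3), and without P10 resected replicate 2 the P10 value was 0.33 and that over both ages 1.23. Over the windows it was 1.66 (SE 0.57, edgeR adjusted p = 0.0645), and it passed the threshold in 4 of 18 fits that left out 1 library, by DESeq2 (adjusted p = 0.0348) and by edgeR without the filter (adjusted p = 3.42e-13). Of the 75-base stretches of Lyz2, 6% also occur in Lyz1.

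The ratio of Lyz2 to the C1q subunits was compared per length after the values had been seen, so it is a description without a test. Lyz2 over the mean RPKM of the 3 subunits was 0.796, 0.628 and 1.34 at P2 baseline, 1.95 and 1.63 in the P2 sham libraries with C1q counts, and 4.66, 3.88 and 8.81 at P2 resected. The P10 ratios were 2, 2.39 and 1.49 at baseline, 3.99, 2.27 and 1.5 after sham surgery, and 2.9, 5.56 and 2.47 after resection. Among libraries with C1q counts, the P2 resected ratios lay above the P2 sham ratios, while P10 resected and P10 sham overlapped. P2 sham replicate 1 held Lyz2 at 2.22 RPKM with no C1q counts, so its ratio has no upper bound and the P2 groups cannot be said to separate.

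**Figure D5:**
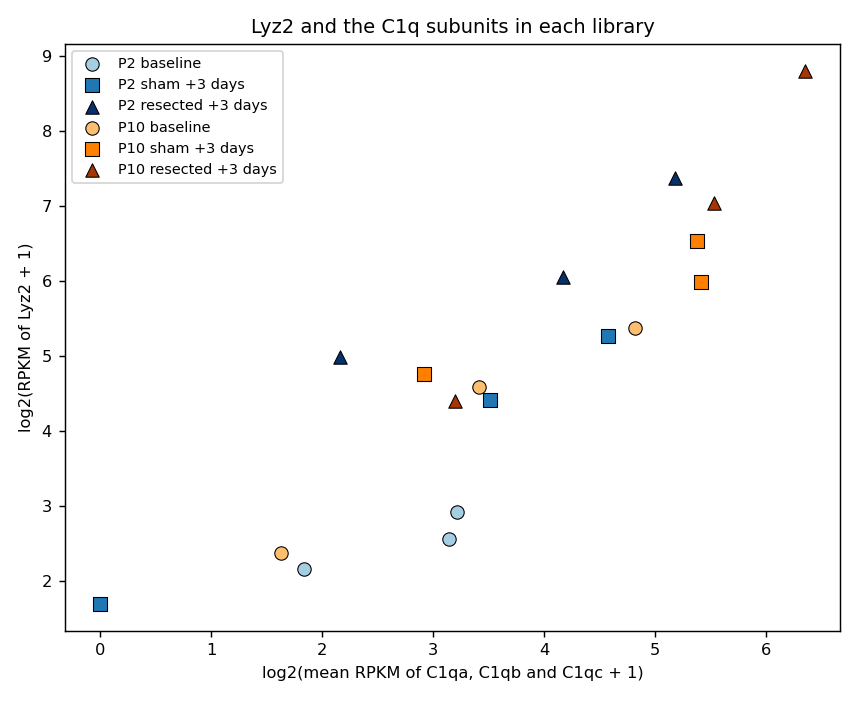
Level of Lyz2 against the mean level of C1qa, C1qb and C1qc in 18 libraries, both as log2(RPKM + 1), with colour for age and group and shape for surgery. The P2 resected libraries (dark blue triangles) lie above libraries of similar C1q level, and the P2 baseline libraries (light blue circles) lie low.

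Ctss, the lysosomal protease cathepsin S, drew the second most reads among the effectors. Ctss was at 8.52, 10.2 and 1.58 CPM at P2 baseline, at 0, 5.81 and 15.5 CPM after P2 sham surgery and at 34.7, 16.6 and 3.63 CPM after P2 resection. P10 libraries held Ctss at 0, 3.42 and 8.68 CPM at baseline, 2.2, 17.1 and 13.7 CPM after sham surgery and 23.4, 85.1 and 3.26 CPM after resection. P10 resected replicate 2 was the highest library, and replicate 3 lay within the P10 sham range. Gpnmb, a lysosomal glycoprotein of lipid-laden and activated macrophages, was at 10.9, 14.4 and 6.83 CPM at P2 resected, above 3.76, 2.54 and 1.76 CPM at P2 sham (log2 fold change 1.99, SE 1.28, edgeR adjusted p = 1). It reached 84.6 CPM in P10 resected replicate 2. Trem2, a lipid receptor, peaked in the same library at 20.5 CPM, and Cybb, the NADPH oxidase subunit, at 8.52 CPM. Without the filter on low counts edgeR called Ctss and Gpnmb as higher after resection over both ages.

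Of 7 monocyte and neutrophil genes 4 were tested, and Plac8 was called. Plac8 encodes a small cysteine-rich protein found in monocytes and other cells, and it had counts in all 18 libraries. In the P2 window the level of Plac8 was 5.34, 15.5 and 7.98 CPM in the baseline libraries, 8.36, 19.5 and 8.22 CPM in the sham libraries and 13.8, 8.46 and 10.5 CPM in the resected libraries. The P10 values were 1.09, 1.77 and 1.58 CPM at baseline, 3.45, 3.36 and 7.69 CPM after sham surgery and 8.6, 8.96 and 55 CPM after resection. All P10 baseline libraries lay below all P2 libraries, where 12.1% of all genes lay wholly below between the baselines. P10 sham lay above P10 baseline, as 5.34% of all genes did, and below P2 sham, as 7.61% did. Plac8 was 6.51-fold lower at P10 baseline than at P2 baseline (log2 fold change -2.7, SE 0.71, edgeR adjusted p = 0.0374). The call was lost in each of the 6 fits that left out 1 library (edgeR adjusted p 0.0526 to 0.15). At P10 every resected library lay above every sham library, with a log2 fold change of 2.32 (SE 0.68, edgeR adjusted p = 1), which became 0.86 in the lowest fit with 1 library left out. P10 resected replicate 3, at 55 CPM, held 69.3% of the counts of its group and was also the highest library for Chil3 and Ly6c2. Ly6c1, which shares sequence with Ly6c2, peaked there too. The summed level of all members in this library, 241 CPM, was the lowest of its group. Without P10 resected replicate 3, the other resected libraries still lay above the sham libraries, at 8.6 and 8.96 CPM against at most 7.69 CPM.

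S100a8 and S100a9 encode the paired calcium-binding proteins that fill neutrophils, and their counts rested on few libraries. The P2 libraries held S100a9 at 7.64, 7.95 and 0 CPM without surgery, 0, 2.08 and 4.37 CPM after sham surgery and 0, 2.31 and 0.0551 CPM after resection. In the P10 window the values were 0, 0.0535 and 0 CPM, 0, 2.78 and 0 CPM and 2.09, 0.953 and 5.59 CPM in the same order of groups. S100a8 was highest at 5.02 CPM in P2 baseline replicate 1 and had no counts in any P10 baseline library. Each gene lacked counts in 7 of 18 libraries. Between the baselines the edgeR adjusted p was 0.156 for S100a8 and 0.157 for S100a9, while DESeq2 called both as lower at P10. Without the filter on low counts edgeR also called both as lower between the baselines, and S100a9 over the windows. The 4 tested genes of this role had a median log2 fold change of -5.19 between the baselines with none positive, and of 1.98 after P10 resection with all 4 positive. At P10 baseline S100a8 had no counts, S100a9 1 and Csf3r 3, so the fitted fold changes behind the baseline median depend on the prior count.

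The remaining genes of blood-derived cells were close to absent. Csf3r, the receptor for the neutrophil growth factor G-CSF, had 148 counts over 18 libraries and none in 9. Ccr2, the chemokine receptor of blood monocytes, had 91 counts, with no counts in 14 libraries and its highest level, 4.33 CPM, in P10 sham replicate 2, and without the filter edgeR called it as higher at P10 over the windows. Ly6c2 had 48 counts and was highest, at 2.25 CPM, in P10 resected replicate 3. Of its 75-base stretches 9.5% also occur in Ly6c1, which was highest in the same library, at 632 CPM. Chil3, a chitinase-like protein of alternatively activated macrophages, had 44 counts in 2 libraries, P10 resected replicates 2 and 3, and shares 13% of its 75-base stretches with Chil4 and Gm6522.

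The MHC class II genes present peptides to CD4+ T cells, with Cd74 as the invariant chain and H2-Aa, H2-Ab1 and H2-Eb1 as chains of the presenting molecules. None of the 4 was called by edgeR with the filter on all 18 libraries, but H2-Ab1 was called between the resected groups fitted alone, and Cd74, H2-Aa and H2-Eb1 were called over the windows without the filter. With voom weights Cd74 was called between the resected groups, H2-Eb1 between the baselines, and both over the windows. DESeq2 called H2-Aa and H2-Eb1 over the windows, and by edgeR each of the 4 was called over the windows in at least 1 of the 18 fits that left out 1 library. Cd74 was at 0.506, 0.977 and 0.853 CPM at P2 baseline, at 0, 1.98 and 3.52 CPM after P2 sham surgery and at 7.21, 0.299 and 0 CPM after P2 resection. At P10 it was at 2.73, 5.08 and 3.65 CPM at baseline, 5.19, 9.12 and 0.66 CPM after sham surgery and 22.6, 6.1 and 4.51 CPM after resection. Cd74 was at 3.52 CPM or less throughout the P2 window, apart from P2 resected replicate 1. In the P2 window the level of H2-Eb1 was 1.61, 0.419 and 0 CPM in the baseline libraries, 0.372, 6.46 and 1.44 CPM in the sham libraries and 3.69, 3.25 and 2.59 CPM in the resected libraries. The P10 values were 2.06, 6.42 and 7.99 CPM at baseline, 1.15, 7.95 and 4.53 CPM after sham surgery and 9.0, 8.07 and 4.12 CPM after resection. For both genes every P10 baseline library lay above every P2 baseline library. H2-Eb1 was 8.12-fold higher (log2 fold change 2.99, SE 1.16, edgeR adjusted p = 0.168, from 2.42 without P2 baseline replicate 3 to 4.62 without P2 baseline replicate 1) and Cd74 4.91-fold higher (log2 fold change 2.29, SE 1.5, edgeR adjusted p = 0.446). DESeq2 called H2-Eb1. In the baseline comparison 10.3% of all genes lay wholly above and 12.1% wholly below, and among the members 2 lay above and 1, Plac8, below.

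H2-Aa and H2-Ab1 were scarcer, and both were higher at P10 resected than at P2 resected in every library. H2-Aa had no counts in 10 libraries and stood at 6.01, 2.73 and 0.311 CPM at P10 resected against 0.235, 0.256 and 0 CPM at P2 resected. H2-Ab1 was at 7.9, 5.47 and 4.35 CPM at P10 resected against 0.821, 0.256 and 0.606 CPM at P2 resected. After resection, H2-Aa, H2-Ab1 and H2-Eb1, together with Lyve1, lay above at P10 in every library, where 10.6% of all genes lay wholly above and 12.7% wholly below, and the edgeR adjusted p was 0.746 for H2-Aa, 0.659 for H2-Ab1 and 0.936 for H2-Eb1. Resection against sham gave medians of 0.33 at P2 with 3 of 4 positive and 1.04 at P10 with 4 of 4 positive. P10 resected replicate 1 was highest for all 4 genes.

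Class II genes are known to share a promoter with a Y box, which the trimeric factor NF-Y binds, and PU.1 binds a purine-rich motif in many myeloid promoters. Promoters were therefore read for members whose values bear on it, from RefSeq on GRCm38.p6, which held a window of 250 bases before and 50 bases after the gene start for 32 of the 42 members. Both strands were searched for GAGGAAGT, taken as PU.1, and for CTGATTGG, taken as the Y box, and the motifs do not overlap each other in these windows. The 250 bases before the start are shown for the class II genes with an entry, where the Y box is in capitals. They are also shown for Plac8 and Itgam, both called in an age comparison. Capitals mark the same box on the other strand in Plac8, and no exact match was found in Itgam. Only exact matches were searched, so variants of these motifs are not marked.
H2-Aa: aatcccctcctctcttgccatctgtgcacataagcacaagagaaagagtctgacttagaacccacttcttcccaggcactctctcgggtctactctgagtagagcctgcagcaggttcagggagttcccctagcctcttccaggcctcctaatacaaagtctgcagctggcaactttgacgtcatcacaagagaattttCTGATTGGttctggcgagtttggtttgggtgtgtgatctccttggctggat
H2-Eb1: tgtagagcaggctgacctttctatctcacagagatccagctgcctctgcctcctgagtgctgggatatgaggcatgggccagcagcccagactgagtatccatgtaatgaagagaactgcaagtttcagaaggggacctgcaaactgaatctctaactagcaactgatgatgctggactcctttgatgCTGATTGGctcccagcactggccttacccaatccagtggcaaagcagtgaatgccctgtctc
Plac8: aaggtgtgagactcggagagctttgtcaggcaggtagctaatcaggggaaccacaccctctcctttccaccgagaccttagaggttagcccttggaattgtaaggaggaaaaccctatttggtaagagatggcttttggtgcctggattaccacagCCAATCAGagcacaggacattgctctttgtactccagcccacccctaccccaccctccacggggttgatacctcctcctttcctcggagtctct
Itgam: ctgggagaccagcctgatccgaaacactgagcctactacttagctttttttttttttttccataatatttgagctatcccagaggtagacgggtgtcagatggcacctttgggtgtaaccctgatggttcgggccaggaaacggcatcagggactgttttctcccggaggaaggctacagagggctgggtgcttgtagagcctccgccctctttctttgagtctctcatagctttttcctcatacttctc

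In genome coordinates these windows are chr17:34287824-34288073 on the minus strand (H2-Aa), chr17:34305617-34305866 on the plus strand (H2-Eb1), chr5:100572206-100572455 on the minus strand (Plac8, the first of 2 starts listed) and chr7:128062390-128062639 on the plus strand (Itgam). The Y box began 51 bases before the start of H2-Aa and 62 bases before that of H2-Eb1. Of 32 members with a window, 3 held the Y box, as did 4.7% of 27025 genes and 4.1% of all 32851 windows, and 5 held the PU.1 motif (C1qc, Ctss, Ly6c2, Pf4 and S100a8), as did 3.69% of genes and 3.2% of windows. A match is a description of letters and not a site, and no factor was measured here.

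Pf4 encodes a chemokine of platelets that macrophages also express, and per length it was the third of the members by mean level, at 26.6 RPKM after Lyz2 and C1qb. Pf4 was at 11.3, 9.68 and 15.8 CPM at P2 baseline, at 7.38, 21.1 and 21.5 CPM after P2 sham surgery and at 31.8, 13.6 and 12 CPM after P2 resection. Its P10 level was 5.7, 8.99 and 20.4 CPM at baseline, 10.7, 24.4 and 24 CPM after sham surgery and 42.5, 44.8 and 19.7 CPM after resection. It had counts in every library, and resected and sham libraries overlapped at both ages. The resection effect was 0.2 (SE 0.54) at P2 and 0.86 (SE 0.54) at P10 on the log2 scale, with edgeR adjusted p-values of 1, while voom weights called Pf4 as higher at P10 resected than at P2 resected. The 7 listed platelet genes, which do not include Pf4, summed to 30.5 to 79.5 CPM, and among them the defining gene Ppbp lay between 0 and 5.28 CPM. Their part in the level of Pf4 was not tested.

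Ligands of the members' receptors ranged from scarce to abundant in the sorted cells. Of 13 listed ligands 12 were tested, and by edgeR 3 were higher and 1 lower over the windows, 1 higher and 2 lower between the baselines, beside 13.5% and 4.38% of all genes called, and none was called between resected and sham libraries. Gas6, a ligand of MERTK, rose from 35.2 ± 3.67 CPM at P2 baseline to 140 ± 24.8 CPM at P10 baseline (SD, n = 3 each, log2 fold change 1.99, SE 0.29, edgeR adjusted p = 0.000701). Ccl2, the ligand of CCR2, fell from 123 ± 19.4 to 30 ± 15.2 CPM between the same groups (SD, n = 3 each, log2 fold change -2.04, SE 0.54, edgeR adjusted p = 0.0391). Ptn, a secreted growth factor, was lower at P10 in all 4 age comparisons, with a log2 fold change of -1.48 over the windows (SE 0.14, edgeR adjusted p = 1.54e-06). Csf1, the ligand of CSF1R, lay between 62.3 and 280 CPM in every library, and Il34, its other ligand, between 4.34 and 20.9 CPM.

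Cx3cl1, the ligand of CX3CR1, was singled out after its values were seen. It was at 6.99 to 10.2 CPM in the 3 P10 resected libraries and at 0.236 to 0.499 CPM in the 3 P10 sham libraries, a 25.5-fold difference in means without overlap (log2 fold change 4.64, SE 1.04, unadjusted p = 0.000325, edgeR adjusted p = 0.626). At P2 the resected libraries lay at 1.82 to 4.95 CPM and the sham libraries at 1.37 to 2.37 CPM, which overlap. P10 sham also lay below P10 baseline, which was at 1.58 to 3.85 CPM. Its receptor gene Cx3cr1 did not separate these groups, with 6.61, 4.39 and 0.311 CPM at P10 resected and 0.4, 12 and 11.2 CPM at P10 sham.

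A further 45 myeloid genes that are no members were examined, of which 42 were tested. By edgeR 2 were called over the windows, both higher at P10, beside 7.11% of all genes, and none in any other comparison. Cbr2, expressed in resident macrophages, rose from 0.264 ± 0.453 to 5 ± 4.65 CPM (SD, n = 9 each, log2 fold change 4.04, SE 1.1, edgeR adjusted p = 0.02). The other, Nckap1l, is an actin regulator of blood cells. Over the windows 6 of 12 cardiomyocyte genes were called lower at P10, beside 6.39% of all genes, with Myl2 and Myh7, chains of myosin, at the smallest adjusted p (log2 fold change -1.22 and -5.19, edgeR adjusted p = 0.00898 and 0.0103). Of 10 fibroblast genes 4 were called higher and 1 lower, beside 7.11% and 6.39%. Gsn, which encodes the actin-severing protein gelsolin, was higher at P10 in all 4 age comparisons, with a log2 fold change of 1.91 over the windows (edgeR adjusted p = 1.38e-07), where the next was Dcn, which encodes the matrix protein decorin, at 0.95 (edgeR adjusted p = 0.000262). Between the baselines 4 fibroblast genes were called, all higher, beside 2.71% of all genes, among them Col3a1 of type III collagen at 0.95 (edgeR adjusted p = 0.0248). Of 7 erythroid genes 1, the globin gene Hba-a1, was called higher over the windows (log2 fold change 1.15, edgeR adjusted p = 0.0495), and all 7 were positive. Their part in the age differences of the members was not tested.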

How the data were processed

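Bulk RNA sequencing of sorted GFP+ cells in 18 libraries, 3 in each of 6 groups, was analysed, with groups taken from the sample labels. The authors trimmed single-end reads with fastp 0.20.0, mapped them with STAR 2.7.0f to GRCm38.p6 with GENCODE M22, and counted exon reads per gene symbol with featureCounts of Subread 1.6.4, without strand. The deposited values are these counts, not normalized. By its default, featureCounts drops reads on several genes, which lowers genes that share exons.

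From the counts, edgeR 4.0.16 in R 4.3.3 kept genes by filterByExpr (minimum count 10, minimum total 15), scaled libraries by TMM and fitted a quasi-likelihood model of all 18 libraries, with a mean for every group. Each comparison was a contrast, called at a Benjamini-Hochberg adjusted p under 0.05 over 16170 genes. The window comparison set the mean of the 3 P10 groups against that of the 3 P2 groups. CPM uses the scaled library sizes, and RPKM also divides by the union exon length in GENCODE M21, the annotation used here. Where a group had no counts, folds were set against 3 counts over its summed library size. Alternatives were DESeq2 1.42.0, its size factors, no filter, limma 3.58.1 with voom sample weights, a replicate block, the compared groups alone, and each library left out.

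The members, the lists of other genes and the comparisons were chosen with earlier results of these data known. Values in every library are given for members called in any comparison and for up to 2 members of each role with the highest mean CPM. Of the other lists, genes called are named, up to 2 per list and age comparison by adjusted p, with the defining markers of other cell types. Values of further members are ranges, counts or the groups in which their libraries did not overlap. Promoters came from RefSeq. Of the listed genes, 1 member and 1 other myeloid gene are not reported here and enter no sum or count of a list.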

Additional observations from a re-analysis of the deposited data

How the results depend on the processing

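Members called by edgeR numbered 0 after resection at P2, at P10 and over both ages, 1 between the baselines, 2 over the windows, and 0 in the other comparisons. Without the filter on low counts they numbered 1 at P2, 1 at P10, 3 over both ages, 7 between the baselines, 4 after sham surgery at P10 against P2, 3 after resection at P10 against P2, 16 over the windows, 2 for sham against baseline at P2 and 1 for sham against baseline at P10, beside 0.083%, 0.263%, 0.332%, 4%, 3.15%, 1.82%, 9.54%, 0.381% and 0.522% of all genes, so that in these 9 comparisons the members' share of calls lay above that of all genes, unlike in the age comparisons with the filter, while in the tenth, the resection effect at P10 minus that at P2, 0 were called beside 0.104%. DESeq2 called 4 members between the baselines and 5 over the windows, where 10.5% and 19.4% of all genes were called. With voom sample weights 1 other member, H2-Eb1, was called between the baselines in place of Plac8, and the number was 3 after resection between the ages and 4 over the windows (22.5%, 5.62% and 28.3% of all genes). With the libraries of the compared groups alone it was 0 between the baselines and 2 after resection between the ages (2.14% and 2.34% of all genes). The cause of these differences was not tested. With 1 library left out the number ranged from 0 to 4 over the windows, beside 9.73% to 17.4% of all genes. All were higher at P10 but for S100a8, called lower without P10 sham replicate 2, and Plac8, called lower without P10 resected replicate 3. Between the baselines the number was 0 in every such fit, beside 1.53% to 7.04% of all genes. It was also 0 in each of the other 8 comparisons, beside at most 2.42%. The windows had 0 members called without P2 resected replicate 2 or 3, P10 baseline replicate 3, or P10 resected replicate 1 or 2, and 4 without P2 sham replicate 3 or P10 baseline replicate 1. Groups share replicate numbers, and same-numbered libraries deviated with r from -0.135 to 0.378 (45 pairs, median 0.047), against -0.285 to 0.208 for different numbers (90 pairs, median -0.025). Since not every same-numbered pair was over 0.1, the numbers were not taken to pair them. With a replicate block 1 member, Cd14, was called over the windows, beside 17% of all genes. The block changed no other count of calls, and between the baselines 6.23% of all genes were called with it. The log2 fold changes of Cd14, Itgam, Lyz2, Plac8 and H2-Eb1 in the comparisons refitted kept their sign under these alternatives, while the medians between the baselines and of P2 sham against P2 baseline changed sign without 1 library. So did the median of the resection effect at P10 minus that at P2, from 0.26 to -0.96 when P2 sham replicate 3 was left out, -0.67 for P10 resected replicate 2, -0.1 for P2 resected replicate 3 and -0.05 for P10 sham replicate 1, and the P2 resection median was -0.01 with voom weights. In sparse members the depth limits the statements, since a library without counts allows up to 3.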

Other observations

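Irf8, which encodes a transcription factor of monocytes and macrophages and was among the other myeloid genes, had counts in every library, including those in which most members had none. It lay between 161 and 195 CPM at P2 baseline, 169 and 233 CPM at P2 sham, 154 and 189 CPM at P2 resected, 169 and 230 CPM at P10 baseline, 77.7 and 170 CPM at P10 sham and 115 and 123 CPM at P10 resected. P2 sham replicate 1 was in that range while it had no counts for Spi1, Csf1r, Ptprc or the C1q subunits.

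Ccl8, a chemokine placed here in the list of ligands, had no counts in the 6 libraries of P2 baseline and P2 sham, 8 counts at P2 resected and 2 at P10 baseline. It was at 0.499 to 2.88 CPM at P10 sham and at 1.64 to 5.9 CPM at P10 resected, and over the windows it was higher at P10 (log2 fold change 5.19, SE 1.12, edgeR adjusted p = 0.00682). Its fitted fold change depends on the prior count.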
